A study of Mus musculus with 8 samples.

Results

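The MS4A family members Ms4a3, Ms4a4b, Ms4a4c, Ms4a6b, Ms4a6c, Ms4a6d and Ms4a7 were examined in sorted bone marrow cells, which the study calls leukemic stem cells (LSCs), of a chronic myeloid leukemia (CML) mouse model. The 7 genes were taken by symbol from a bulk RNA-seq table of 15576 rows, in which 6 of them had a row, and all 6 were among the 11937 genes tested. Ms4a7 had no row and was not analysed here. The 8 libraries came from 4 samples of untreated CML mice (CML) and 4 samples of CML mice given imatinib (CML-TKI), a tyrosine kinase inhibitor of BCR-ABL. The labels call all of them stem cells of C57BL/6 mice, and the treated animals received 400 mg/kg by gavage on alternate days for 30 days, whereas the legend of the study for these RNA-seq data gives a lower dose and its methods allow either. Per the study, both groups were double transgenic for BCR-ABL and SCL-tTA, a tetracycline-controlled transactivator, and withdrawal of tetracycline starts BCR-ABL expression in their stem cells. The ages of the animals were not given in the sources used here. No label says that the libraries of a group came from separate animals, so p-values measure only the spread between these libraries. The fourth CML column carries the number 5, which no label gives, and is called CML 5.

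MS4A proteins span the membrane 4 times and sit at the cell surface or in endosomal membranes, where they associate with receptors and signaling proteins. Their best known members are CD20 of B cells, encoded by Ms4a1, and the beta subunit of the high-affinity IgE receptor of mast cells and basophils, encoded by Ms4a2. In bone marrow, Ms4a3 is known as a gene of granulocyte-monocyte progenitors (GMPs), its protein binds the cell cycle phosphatase CDKN3 together with CDK2, and in CML it is known to act on the endocytosis of the common beta chain receptor of IL-3 and GM-CSF. The Ms4a4 and Ms4a6 genes are young duplicates in the mouse, and they are known mainly from lymphocytes, monocytes and macrophages.

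The libraries held between 1041552 and 8620101 estimated counts, with the lowest total in CML-TKI 3. The floor of detection was set at 3 counts of a gene, which is 0.409 to 0.58 CPM (counts scaled to library size by edgeR's TMM method) in CML and 0.57 to 3.29 CPM in CML-TKI. This floor and all count intervals cover counting error only. The treated libraries were more spread (biological coefficient of variation 69.2%) than the untreated ones (28%), and CML 1 to 3 alone lay far closer together (11%). CML-TKI 1 still held 426.6 CPM of the hematopoietic stem cell marker list, where the other CML-TKI libraries held 48.0 to 95.2 CPM and the CML libraries 1114 to 1459 CPM. CML-TKI 3 stood apart in other genes, with 372.6 CPM of the B cell marker list against at most 23.8 CPM in the other 7 libraries, 19620 CPM of hemoglobin alpha (Hba-a1), where CML-TKI 4 was next at 109.8 CPM, and the only counts of the Y-linked gene Ddx3y. The labels give a CD150-negative, CD48-positive gate for all 8 libraries, while legends of the study for flow cytometry and imaging define LSCs as CD48-negative and CD150-positive, and the study's supplementary methods were not used here. In the RNA, Slamf1, which encodes CD150, was lower in CML-TKI (log2 fold change -3.42, adjusted p = 0.00797 by edgeR's quasi-likelihood test) and Cd48 was higher (log2 fold change 4.35, adjusted p = 0.00087). In CML, Slamf1 was at 32.4 ± 3.74 CPM and Cd48 at 5.04 ± 1.24 CPM (SD, n = 4 each), which goes against the labelled gate. In CML-TKI, Slamf1 was at 3.33 ± 2.74 CPM and Cd48 at 103.3 ± 56.9 CPM (SD, n = 4 each), the order of that gate. Of 5 tested gate genes, 1 rose and 2 fell by edgeR. Kit fell from 938 ± 120 to 248.5 ± 44.2 CPM (log2 fold change -1.92, adjusted p = 0.00087 by edgeR). Whether the sorted cells differed between the groups, and the part of this in the members' levels, was not tested. The labelled gate in turn goes against the label of stem cells in both groups. In CML-TKI the levels of stem cell and GMP markers go against the label of stem cells as well, so the libraries are named here by their group only.

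The 6 members lie in the Ms4a cluster on chromosome 19 of GRCm38, which spans 679 kb. Ms4a3 lies at chr19:11629499-11640851 on the minus strand, Ms4a4c at chr19:11404717-11427246, Ms4a4b at chr19:11443558-11463549 and Ms4a6c at chr19:11469353-11487182 on the plus strand, Ms4a6b at chr19:11518559-11530403 on the plus strand, and Ms4a6d at chr19:11586606-11604804 on the minus strand. Ms4a3 shared between 47.8% and 48.6% of coding bases with the other members, and its longest exact run with any of them was 11 bases. The Ms4a4b and Ms4a4c coding sequences were 91.7% identical, those of Ms4a6b and Ms4a6d 79.8%, those of Ms4a6b and Ms4a6c 74.4%, and those of Ms4a6c and Ms4a6d 67.2%. The longest exact stretches of the close pairs are shown because a short read that falls inside one cannot be placed by its sequence. For Ms4a4b and Ms4a4c this was a run of 127 bases at coding positions 321 to 447 in exons 5 and 6 of 7, at chr19:11459161-11459278 and chr19:11461257-11461265 in Ms4a4b and at chr19:11419001-11419118 and chr19:11421258-11421266 in Ms4a4c, plus strand. For Ms4a6b and Ms4a6c it was a run of 55 bases at coding positions 389 to 443 in exon 5 of 7, at chr19:11526749-11526803 in Ms4a6b and chr19:11478217-11478271 in Ms4a6c, plus strand. For Ms4a6b and Ms4a6d it was a run of 81 bases at coding positions 100 to 180 in exons 2 and 3 of 7, at chr19:11520438-11520485 and chr19:11521671-11521703 in Ms4a6b, plus strand, and at chr19:11603146-11603193 and chr19:11601932-11601964 in Ms4a6d, minus strand. Ms4a6c and Ms4a6d shared a run of 44 bases, not printed. The stretches are read from GENCODE M21 transcripts, 5′ to 3′, in lower case throughout because the whole run is shared.
Ms4a4b and Ms4a4c: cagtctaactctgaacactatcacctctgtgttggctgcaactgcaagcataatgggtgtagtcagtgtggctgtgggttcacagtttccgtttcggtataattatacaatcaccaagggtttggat
Ms4a6b and Ms4a6c: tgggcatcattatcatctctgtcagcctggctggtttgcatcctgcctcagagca
Ms4a6b and Ms4a6d: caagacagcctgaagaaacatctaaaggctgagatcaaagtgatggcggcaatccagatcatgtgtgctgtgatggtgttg

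Values that were not whole numbers occurred in all 8 libraries for Ms4a6b and for Ms4a6c, in 2 libraries each for Ms4a4b and Ms4a4c, in 1 library for Ms4a6d, and in 0 of 8 for Ms4a3, counting values more than 0.001 from a whole number. The fractions of Ms4a6b and Ms4a6c summed to a whole number within 0.01 in 7 of 8 libraries, and in 8 of 8 when Ms4a6d was added. Those of Ms4a4b and Ms4a4c did so in 8 of 8. The values of single Ms4a4 and Ms4a6 genes are uncertain to the extent that the authors' counting divided reads between copies, while Ms4a3 and the sums over copies hold whole counts.

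Ms4a3 was higher in CML-TKI, with 6 to 23 counts per CML library and at least 181 per CML-TKI library. The CML libraries 1, 2, 3 and 5 held 7, 7, 6 and 23 counts of Ms4a3, or 0.953, 1.35, 1.16 and 3.16 CPM. The CML-TKI libraries 1 to 4 held 181, 773, 212 and 647 counts, or 34.4, 239.6, 232.4 and 168.3 CPM. The groups did not overlap, CML 5 was the highest CML library, and CML-TKI 1 was the lowest CML-TKI library by a wide margin. The mean rose from 1.66 ± 1.02 CPM (SD, n = 4) to 168.7 ± 95.1 CPM (SD, n = 4), or 6.62 on the log2 scale (SE 0.70, 95% interval 5.05 to 8.19, adjusted p = 0.00087 by edgeR, adjusted over all genes tested). Of the 11937 genes tested, 37 had a larger log2 fold change than Ms4a3. The change was 6.95 without CML-TKI 1 and 7.15 without CML 5, with the adjusted p between 2.73e-05 and 0.00602 over the fits that each left out 1 library. In these bulk samples, more cells of a type and more RNA per cell cannot be told apart.

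For all 6 members with a row, the lowest CML-TKI library stood above the highest CML library, and all 6 passed the threshold (adjusted p under 0.05) upward. Over all genes tested, 6.29% passed the threshold upward and 10.3% were separated in this way, while 3.93% passed it downward. Only Ms4a6b and Ms4a6c had at least 10 counts in every CML library, and the other 4 entered the test through their CML-TKI counts, so neither the number called nor the median of the 6 carries weight as support. That median log2 fold change was 5.90, or 5.28 with Ms4a4c and Ms4a6d set to their value against CML libraries at the floor, and the median over all genes tested was -0.000258. A gene that enters through its CML-TKI counts alone has a high fold change by that selection, so the medians cannot be compared.

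**Figure D1:**
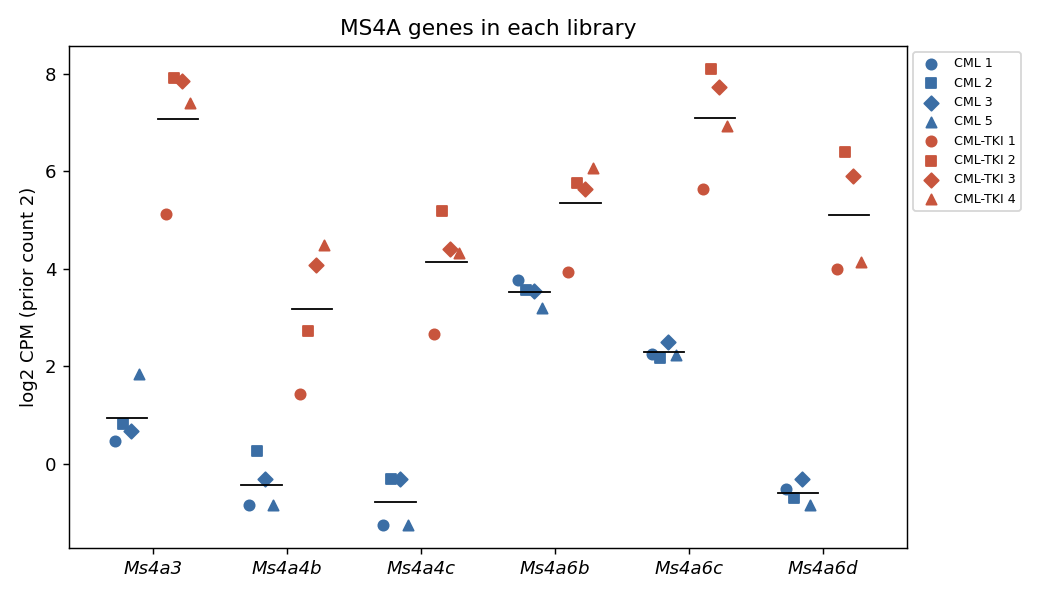
log2 CPM (prior count 2, vertical axis) of the 6 MS4A genes in each of the 4 CML (blue) and 4 CML-TKI (red) libraries, with marker shapes for the libraries and black lines at the group means. The groups are separate for each gene, CML-TKI 1 is the lowest red point for each gene, and for Ms4a6b it lies just above the blue points.

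Among the Ms4a6 genes, known from monocytes, macrophages and, for Ms4a6b, T cells, all 3 rose, with larger log2 fold changes for Ms4a6c and Ms4a6d than for Ms4a6b. Ms4a6c held 4.36, 4.05, 5.22 and 4.26 CPM in CML 1, 2, 3 and 5, and 49.2, 275.5, 212.6 and 122 CPM in CML-TKI 1 to 4. Its CML libraries lay close together, and the lowest CML-TKI library was above all of them. Its log2 fold change was 5.19 (SE 0.53, 95% interval 4.02 to 6.37, adjusted p = 0.000782 by edgeR), with means of 4.47 ± 0.513 and 164.8 ± 99.6 CPM (SD, n = 4 each).

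Ms4a6d was at or under the floor in CML, with 2, 1, 2 and 1 counts in CML 1, 2, 3 and 5. In CML-TKI 1 to 4 it held 82, 270, 54 and 66 counts, or 15.6, 83.7, 59.2 and 17.2 CPM. CML-TKI 1 and 4 were low and CML-TKI 2 and 3 were high within the treated group. From the counts alone, 472 in CML-TKI against 6 in CML, the ratio of Ms4a6d scaled to library size was 148.3 with a counting interval of 67.6 to 406.1. The fitted log2 fold change was 7.34 (SE 0.78, adjusted p = 0.00087 by edgeR), a value that depends on the prior count.

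Ms4a6b had the highest level of the 6 in each CML library. It held 13.3, 11.4, 11.2 and 8.80 CPM in CML 1, 2, 3 and 5, from 98.3, 58.8, 58.1 and 64.4 estimated counts, and 14.8, 53.6, 49.3 and 67.4 CPM in CML-TKI 1 to 4. CML-TKI 1 stood just above CML 1, so the groups were separate by a narrow gap. The log2 fold change was 2.04 (SE 0.44, 95% interval 1.06 to 3.02, adjusted p = 0.0177 by edgeR), with means of 11.2 ± 1.86 and 46.3 ± 22.3 CPM (SD, n = 4 each). This call was lost when any 1 CML library was left out, with adjusted p of 0.0544 without CML 1, 0.062 without CML 2, 0.0608 without CML 3 and 0.0585 without CML 5, while the log2 fold change stayed between 1.93 and 2.14. It was also lost with CML 1 to 3 summed (adjusted p = 0.206).

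The division between Ms4a6b and Ms4a6c was followed in each library. Ms4a6b held 75.6%, 73.4%, 68.4% and 67.8% of the counts of the pair in CML 1, 2, 3 and 5, and 23.1%, 16.3%, 18.8% and 35.6% in CML-TKI 1 to 4. Every CML library was above every CML-TKI library, and the 95% Wilson interval of the lowest CML share, 57.4% to 76.0%, did not meet that of the highest CML-TKI share, 32.2% to 39.1%. The mean share was 71.3 ± 3.81% in CML and 23.5 ± 8.57% in CML-TKI (SD, n = 4 each), a difference of -47.8 percentage points. This measure was chosen after the values had been seen to separate, so no test is given. Because the authors' counting divided the reads shared by these 2 genes, the shares are those of the estimated counts. Summed over Ms4a6b, Ms4a6c and Ms4a6d, which needs no such division, the log2 fold change was 4.00 (SE 0.47, adjusted p = 0.00112 by edgeR).

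**Figure D2:**
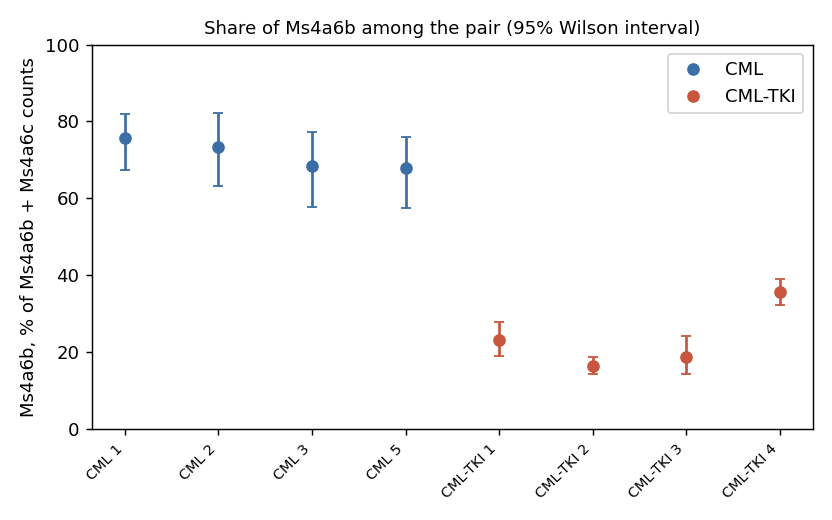
Share of Ms4a6b among the counts of Ms4a6b and Ms4a6c (vertical axis, percent) in each library, with 95% Wilson intervals of the rounded counts, for CML (blue) and CML-TKI (red). The CML shares lie between 67.8% and 75.6%, and the CML-TKI shares between 16.3% and 35.6%, with CML-TKI 4 the highest of its group.

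Ms4a4b, known from T cells, and its close copy Ms4a4c were at or near the floor in CML and at low levels in CML-TKI. Ms4a4c held 0, 2, 2 and 0 counts in CML 1, 2, 3 and 5, and 31, 115.8, 19 and 75.4 counts, or 5.89, 35.9, 20.8 and 19.5 CPM, in CML-TKI 1 to 4. From the counts alone, 241 against 4, its ratio was 113.6 with a counting interval of 43.8 to 420.2, and its fitted log2 fold change was 6.70 (SE 1.01, adjusted p = 0.00356 by edgeR), a call lost with CML 1 to 3 summed to 1 library (log2 fold change 7.01, adjusted p = 0.0562). Ms4a4b held 1, 4, 2 and 1 counts in CML 1, 2, 3 and 5, and 12, 20.2, 15 and 83.6 counts, or 2.28, 6.20, 16.4 and 21.9 CPM, in CML-TKI 1 to 4. Ms4a4b thus peaked in CML-TKI 4 and Ms4a4c in CML-TKI 2.

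For Ms4a4b, the log2 fold change was 4.98 (SE 0.97, 95% interval 2.82 to 7.13, adjusted p = 0.0113 by edgeR), and its call was lost without CML 1 (adjusted p = 0.0524) and with CML 1 to 3 summed (adjusted p = 0.159). From the counts alone, 131 in CML-TKI against 8 in CML, the ratio of Ms4a4b was 30.9 with a counting interval of 15.2 to 73. Summed over Ms4a4a, Ms4a4b and Ms4a4c, the log2 fold change of the Ms4a4 genes was 5.95 (SE 0.82, adjusted p = 0.00233 by edgeR). Markers of T and NK cells were followed beside these genes. The 10 measured genes of that list summed to 14.5 to 23.2 CPM in the CML libraries and to 12.5, 19.8, 155.6 and 80.9 CPM in CML-TKI 1 to 4, with Cd3e, Cd3g and Cd8a at 0 in CML. Of the list, 4 genes were tested and 0 passed the threshold by edgeR, 0 had an unadjusted p under 0.05, and 0 passed by DESeq2 or limma-voom, and the part of these cells in the levels of Ms4a4b and Ms4a4c was not tested.

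The 6 members together took little of the CML libraries and a varying amount of the CML-TKI libraries. Their summed level was 19.1, 18.1, 18.7 and 16.5 CPM in CML 1, 2, 3 and 5, and 122.1, 694.5, 590.7 and 416.2 CPM in CML-TKI 1 to 4. The mean was 18.1 ± 1.14 CPM in CML and 456 ± 250 CPM in CML-TKI (SD, n = 4 each), and CML-TKI 1 held the lower end of the CML-TKI range. Ms4a6b held the largest share of the members' counts in each CML library, between 53.3% and 70.0%, and 7.72% to 16.2% in CML-TKI. Ms4a3 held 5.0% to 19.2% in CML and 28.1% to 40.4% in CML-TKI. Ms4a6c was the largest member in CML-TKI 1 and 2, with 40.3% and 39.7%, and Ms4a3 in CML-TKI 3 and 4, with 39.3% and 40.4%.

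**Figure D3:**
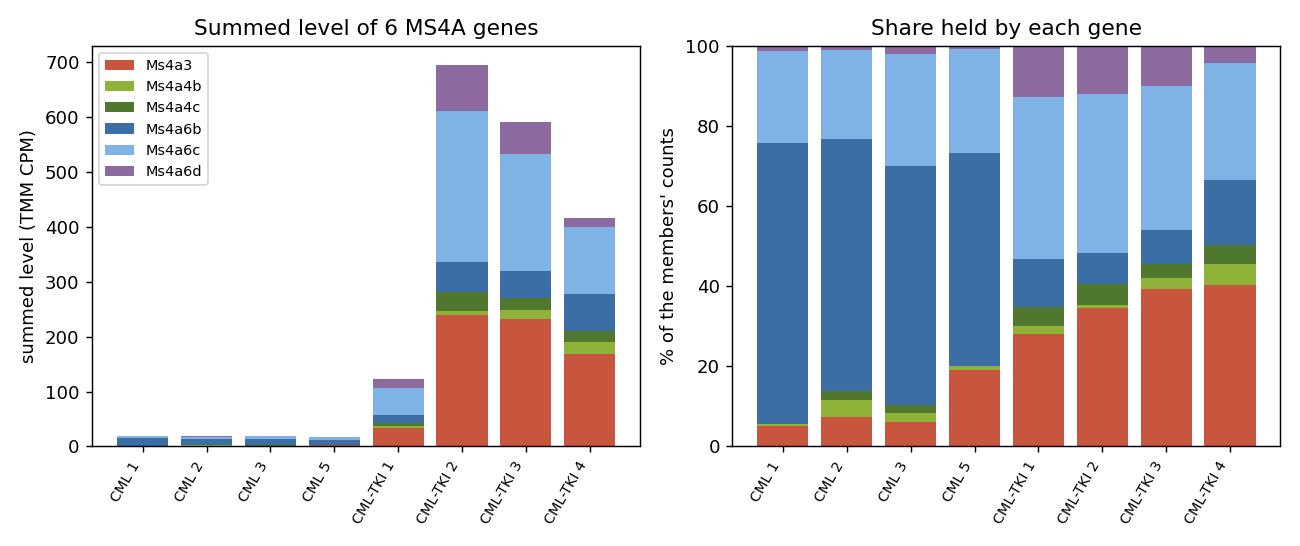
Left, summed TMM-scaled level (CPM) of the 6 MS4A genes in each library, stacked by gene; right, share of each gene among the members' counts in percent. The CML bars stand between 16.5 and 19.1 CPM and consist mostly of Ms4a6b, and the CML-TKI bars stand between 122.1 and 694.5 CPM and consist mostly of Ms4a3 and Ms4a6c.

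On a scale of CPM per kilobase of transcript, which allows levels to be compared between genes, the order in CML was Ms4a6b at 6.63 ± 1.10, Ms4a6c at 2.43 ± 0.278, Ms4a3 at 1.64 ± 1.01, Ms4a6d at 0.174 ± 0.0762, Ms4a4c at 0.112 ± 0.129 and Ms4a4b at 0.0754 ± 0.0632 (SD, n = 4 each). Ms4a6b stood above Ms4a6c in every CML library, Ms4a6c stood above Ms4a3 in 3 of 4, each Ms4a3 value stood above the Ms4a6d values, and the last 3 overlapped. In CML-TKI the order was Ms4a3 at 167 ± 94.1, Ms4a6c at 89.5 ± 54.1, Ms4a6d at 31.0 ± 23.5, Ms4a6b at 27.4 ± 13.2, Ms4a4c at 11.9 ± 7.13 and Ms4a4b at 2.46 ± 1.90. Within the CML-TKI libraries, each gene stood above the next in 4 of 4, except that Ms4a6d stood above Ms4a6b in 3 of 4. The ranges over the 4 libraries overlapped for each pair of neighbours. Lengths are those of the longest transcript paired with a curated RefSeq transcript, 4750 bases for Ms4a4b and 1723 for Ms4a4c. In CPM without this scaling, Ms4a4b stood above Ms4a4c in CML-TKI 4, at 21.9 against 19.5.

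CML-TKI 1 was the lowest treated library for each of the 6 members, and so it was for 62.7% of the 751 genes called higher. CML-TKI 2 was the highest for Ms4a3, Ms4a4c, Ms4a6c and Ms4a6d, and CML-TKI 4 for Ms4a4b and Ms4a6b. As a description over the 8 libraries, the profiles of log2 CPM centred on their means were closest for Ms4a4c and Ms4a6c (root mean square distance 0.365 log2 units) and for Ms4a6c and Ms4a6d (0.56), and farthest for Ms4a3 and Ms4a6b (2.24). Ms4a4b and Ms4a4c, the closest pair in sequence, were 0.973 apart. Each distance includes the difference between the groups.

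Among 9311 genes whose log2 CPM averaged 3 or more, the genes nearest to each member were named by the same distance, without a test. Nearest to Ms4a3 were Clec12a, an inhibitory lectin receptor of myeloid cells (0.442), Rab44 (0.47) and the complement gene C3 (0.486). Ms4a6c was nearest to the leukocyte tetraspanin Cd53 (0.325), the inhibitory Fc receptor Fcgr2b (0.341) and Sema4a (0.374), and Ms4a6d to Pld4 (0.397), galectin-3 (Lgals3, 0.502) and Sema4a (0.508). Near Ms4a4c were Igsf6 (0.345) and the NADPH oxidase gene Cybb (0.355). Ms4a4b was nearest to the IL-33 receptor gene Il1rl1 (0.421), Rflnb (0.489) and the lysosomal protease gene Ctss (0.555). Ms4a6b was nearest to Ticam2, an adaptor of Toll-like receptor signaling (0.20), to Ly9 (0.217) and to Mcf2l (0.257), which were at 10.7 ± 2.14, 8.30 ± 1.20 and 8.36 ± 1.44 CPM in CML (SD, n = 4 each).

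The other Ms4a genes with a row were not tested, because fewer than 4 libraries reached the minimum count of the filter. Ms4a4a, known from macrophages, held 0, 0, 1 and 0 counts in CML 1, 2, 3 and 5 and 8, 30, 4 and 7 in CML-TKI 1 to 4, and was the only one of these whose groups did not overlap. Ms4a2, the IgE receptor subunit, held 2, 0, 2 and 0 counts in CML and 38, 88, 0 and 250 in CML-TKI 1 to 4, and the basophil genes Mcpt8 and Prss34 were also at their highest in CML-TKI 4. Ms4a2 held 376 counts over the CML-TKI libraries, more than the tested Ms4a4b or Ms4a4c, but was at 0 in CML-TKI 3. Of 3 tested genes of the mast cell and basophil list, 2 rose and 1, Gata2, fell, where 6.29% of all genes tested rose and 3.93% fell. Ms4a1, which encodes CD20, was at 37.3 CPM in CML-TKI 3, the library with the highest sum of the B cell marker list, and at no more than 2.79 CPM elsewhere.

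Ms4a8a held 6 counts in CML-TKI 2 and 15 in CML-TKI 4 and 0 in the other 6 libraries. 2 distant relatives outside the cluster, Tmem176a and Tmem176b on chromosome 6, moved the opposite way to the members. Tmem176a fell from 70.1 ± 14.4 to 22.2 ± 8.60 CPM (SD, n = 4 each; log2 fold change -1.66, adjusted p = 0.0112 by edgeR), and Tmem176b fell from 197 ± 45.5 to 53.8 ± 36.5 CPM (log2 fold change -1.85, adjusted p = 0.0264 by edgeR). Neither overlapped between groups, where 13.1% of all genes tested had every CML-TKI library below every CML library. These 2 genes overlap each other on opposite strands, and no source used here says that reads were counted by strand, so reads that fall inside the overlap cannot be told apart.

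A list of partners held proteins that MS4A members are known to bind or act on, and the cytokine receptor chains that pair with the common beta chain or copy it. Of 5 tested genes of the bound or acted on kind, 2 rose, Csf2rb and Clec7a, and of 4 tested genes of the other receptor chains, 3 rose. The remaining 4 of these 9 genes did not pass, and the median log2 fold change of the 9 was 2.24, where 6.29% of all genes tested rose by edgeR. DESeq2 called 6 of the 9 higher and 1 lower. Csf2rb, the common beta chain that Ms4a3 acts on, was at 33.3 ± 9.93 CPM in CML and at 164, 860, 503 and 181 CPM in CML-TKI 1 to 4 (log2 fold change 3.68, adjusted p = 0.00369 by edgeR). Csf2rb2, its close copy, which binds IL-3, had a log2 fold change of 2.55 (adjusted p = 0.0118), with reads that may be divided between the 2 genes.

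Csf2ra, the GM-CSF receptor alpha chain, had a log2 fold change of 2.24 (adjusted p = 0.0105 by edgeR), and Il5ra, the IL-5 receptor alpha chain, had a fitted value of 6.86 (adjusted p = 0.00435) from CML libraries at the floor. Clec7a, the beta-glucan receptor dectin-1 that associates with Ms4a4a, had 3.26 (adjusted p = 0.00333). The cell cycle partners of Ms4a3 did not pass the threshold, with Cdkn3 at 1.60 (adjusted p = 0.113) and Cdk2 at -0.26 (adjusted p = 0.595). Neither did the IL-3 receptor alpha chain Il3ra, at 0.49 (adjusted p = 0.747), nor Tnfrsf18, which encodes the Ms4a4b partner GITR, at -1.99 (adjusted p = 0.0527). Trem2 was not tested.

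Markers of GMPs and of monocytes and macrophages moved with the members. The GMP marker list summed to 71.2 to 156.2 CPM in the CML libraries and to 1406, 7480, 6144 and 7760 CPM in CML-TKI 1 to 4, and 8 of its 9 tested genes rose, among them Mpo (log2 fold change 7.94, adjusted p = 0.00102 by edgeR), Elane (8.26, adjusted p = 0.00087) and Prtn3 (4.76, adjusted p = 0.00087), which encode azurophil granule proteins. The monocyte and macrophage list summed to 44.6 to 98.4 CPM in CML and to 914.3, 4722, 3552 and 2615 CPM in CML-TKI 1 to 4, and 12 of its 14 tested genes rose, with Ccr2 at 8.04 (adjusted p = 0.000462) and F13a1 at 8.02 (adjusted p = 0.000541). Among all genes tested, 6.29% rose by edgeR. As for the members, CML-TKI 1 had the lowest sum of both lists. In the opposite direction, 3 of 9 tested stem cell markers fell by edgeR (7 at an unadjusted p under 0.05, 4 by DESeq2 and 8 by limma-voom), where 3.93% of all genes tested did so by edgeR, with Meis1 at -3.07 (adjusted p = 0.0102) and Hlf at -3.64 (adjusted p = 0.0303).

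The part of these cells or programs in the rise of Ms4a3 and the Ms4a6 genes was not tested. Of 9 tested type I interferon-response genes, 1 fell by edgeR and 0 rose, and at an unadjusted p under 0.05, by DESeq2 and by limma-voom 3 fell and 0 rose. Of 11 myeloid transcription factor genes, 7 rose and 1, Stat5a, fell (log2 fold change -1.49, adjusted p = 0.0108 by edgeR), while Stat3 was at 0.04 (adjusted p = 0.915). The shares over all genes tested were 6.29% up and 3.93% down. Of 8 housekeeping genes, 1, B2m, fell by edgeR.

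Genes beside the cluster were read to see whether the difference stopped at its ends. Of 22 measured genes that are not MS4A genes, 10 on either side and 2 inside, 15 were tested, and 5 rose and 0 fell by edgeR (8 and 2 at an unadjusted p under 0.05, 7 and 2 by DESeq2, 6 and 1 by limma-voom), with a median log2 fold change of 0.95. By edgeR, 6.29% of all genes tested rose and 3.93% fell. Mpeg1, which encodes the pore-forming protein perforin-2 of macrophages, rose from 7.38 ± 3.91 to 576 ± 277 CPM (SD, n = 4 each; log2 fold change 6.29, adjusted p = 0.00068 by edgeR), and its neighbour Dtx4 rose by 4.51 (adjusted p = 0.000862). Mpeg1 and Dtx4 start at chr19:12460770 and chr19:12466329, well past the cluster end at chr19:11640851. The tested genes between them and the cluster rose less or did not pass the threshold. Stx3 (1.96, adjusted p = 0.0102), Tmem109 (1.46, adjusted p = 0.0155) and Fam111a (1.42, adjusted p = 0.0495) rose less, and the groups overlapped for Fam111a. The only tested gene inside the cluster that is not an MS4A gene, AW112010, had a log2 fold change of -1.78 (adjusted p = 0.131) and overlapping groups.

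**Figure D4:**
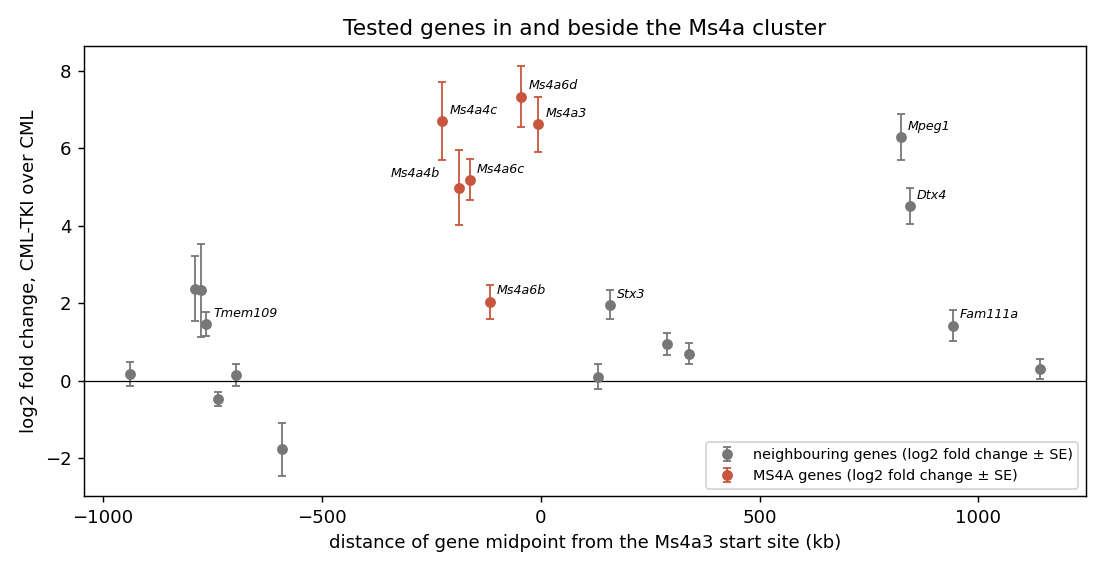
log2 fold change of CML-TKI over CML with its standard error (vertical axis) for the tested genes in and beside the Ms4a cluster, by the distance of the gene's midpoint from the Ms4a3 start site in kb (horizontal axis). Names mark genes with an adjusted p under 0.05; the 6 MS4A genes (red) lie between 2.04 and 7.34, and among the neighbours (grey) Mpeg1 and Dtx4 reach 6.29 and 4.51 while the others lie between -1.78 and 2.37.

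Promoter sequences were read for the 5 members that matched the RefSeq promoter table by symbol, as the 250 bases before the start site in GRCm38.p6, 5′ to 3′ on the gene's strand. The table's start sites need not be the outer ends of the gene spans given above, and for Ms4a4c and Ms4a6c the windows lie inside or reach into those spans. The windows are shown because these genes rose together, and because each of the 2 close pairs shares an exact upstream run. Capitals mark the longest exact run that a pair shares, which was 20 bases for Ms4a4b and Ms4a4c and 48 bases for Ms4a6b and Ms4a6c. The windows are chr19:11443308-11443557 (plus) for Ms4a4b, chr19:11407411-11407660 (plus) for Ms4a4c, chr19:11518309-11518558 (plus) for Ms4a6b, chr19:11469118-11469367 (plus) for Ms4a6c and chr19:11640852-11641101 (minus) for Ms4a3, which has no pair and no capitals.
Ms4a4b: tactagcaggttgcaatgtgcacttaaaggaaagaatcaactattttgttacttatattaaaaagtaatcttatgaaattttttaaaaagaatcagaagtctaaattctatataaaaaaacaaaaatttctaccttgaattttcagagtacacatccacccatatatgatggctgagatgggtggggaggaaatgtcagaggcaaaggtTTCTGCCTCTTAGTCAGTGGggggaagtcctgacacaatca
Ms4a4c: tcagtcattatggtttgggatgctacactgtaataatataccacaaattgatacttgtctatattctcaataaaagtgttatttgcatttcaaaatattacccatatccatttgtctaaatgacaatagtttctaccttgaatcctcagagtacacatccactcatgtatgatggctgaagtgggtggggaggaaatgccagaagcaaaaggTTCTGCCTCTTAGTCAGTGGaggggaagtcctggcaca
Ms4a6b: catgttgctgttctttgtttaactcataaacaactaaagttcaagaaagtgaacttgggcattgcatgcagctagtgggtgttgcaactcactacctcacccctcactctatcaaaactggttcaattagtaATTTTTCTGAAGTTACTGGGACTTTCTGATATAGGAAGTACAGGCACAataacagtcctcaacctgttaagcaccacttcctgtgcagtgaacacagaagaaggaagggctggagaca
Ms4a6c: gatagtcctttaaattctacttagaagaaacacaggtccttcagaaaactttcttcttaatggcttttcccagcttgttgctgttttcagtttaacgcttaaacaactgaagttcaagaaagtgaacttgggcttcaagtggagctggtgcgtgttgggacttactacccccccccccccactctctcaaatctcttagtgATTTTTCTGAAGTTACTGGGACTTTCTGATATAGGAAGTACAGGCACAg
Ms4a3: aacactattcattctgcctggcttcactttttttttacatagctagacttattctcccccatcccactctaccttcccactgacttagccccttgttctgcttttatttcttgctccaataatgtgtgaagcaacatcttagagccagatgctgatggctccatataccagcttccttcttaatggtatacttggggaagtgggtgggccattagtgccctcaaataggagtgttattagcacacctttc

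The shared run of the Ms4a6 pair lay at -118 to -71 from the start site in Ms4a6b and at -49 to -2 in Ms4a6c, and the shared run of the Ms4a4 pair at -41 to -22 in Ms4a4b and -38 to -19 in Ms4a4c. Aligned from end to end, the windows were 69.0% identical for Ms4a4b and Ms4a4c, 45.8% for Ms4a6b and Ms4a6c, and 42.8% to 48.4% for the other pairs. The shared run of Ms4a6b and Ms4a6c lies at different distances from their start sites, so their value depends on where the windows were placed. It does not measure how far their upstream sequence was kept. The windows were searched on both strands for 3 motifs of factors active in myeloid cells, C/EBP (TTNNGCAA), PU.1 (GAGGAA) and STAT (TTCNNNGAA), none of which contains another. A PU.1 match was found in Ms4a4b, from -64, and in Ms4a4c, from -61, where 23.3% of 32851 promoter windows of the same length hold one. No other match was found in the 5 windows, while 9.56% of all windows hold the C/EBP letters and 7.02% the STAT letters. The windows had a GC content of 34.4% to 43.6% and 0 to 2 CpG dinucleotides, against medians of 52.4% and 6 over all windows.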

How the data were processed

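Bulk RNA-seq libraries of 4 CML and 4 CML-TKI samples of sorted bone marrow cells labelled as stem cells were used. The authors made Nextera XT libraries, aligned reads to mm10 with STAR 2.6.1d and quantified them in Partek 8.0 (per the study's methods and the submitters' processing notes), and deposited an estimated count of each gene in each library, not normalized. Counts were rounded to whole numbers and tested with edgeR 4.0.16 in R 4.3.3 (TMM, filterByExpr with minimum count 10 and minimum total count 15, robust quasi-likelihood test, no covariates), with Benjamini-Hochberg adjustment over 11937 genes and a threshold of 0.05. CPM values are TMM-scaled, and log2 CPM uses a prior count of 2. The estimated counts summed to 1041552 to 8620101 per library. On simulated counts of 11570 tested genes for this comparison, edgeR recovered 74.2% of 186 genes changed 8-fold, with 3.5% of its calls false. The simulation gave both groups the same spread for a gene, unlike these data, so these shares need not hold for them.

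The members and all gene lists were chosen with earlier results of these data known. Named were all members, every other MS4A gene with a count, the list of their partners, at most 3 genes of each other list by mean CPM, the 3 genes with the nearest profile per member, and cluster neighbours past the threshold, apart from items not reported here. Cd3e, Cd3g, Cd8a, Slamf1, Ddx3y and AW112010 were named beyond that rule after their values were seen. Coding sequences and transcript lengths came from GENCODE M21 and promoters and gene positions from RefSeq, both GRCm38, the assembly of mm10. Global alignments used Biopython 1.88. Alternatives were DESeq2 1.42.0, limma 3.58.1 (voom with sample quality weights), other scalings, no filter, a replicate block, thinned counts, summed copies and libraries left out.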

Additional observations from a re-analysis of the deposited data

Results flagged for a closer look

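In 28 tests of a gene or summed measure within a group of 4 libraries, 2 values lay apart from the other libraries by more than Dixon's 95% critical value, where chance gives about 1 in 20. Ms4a1 was at 37.3 CPM in CML-TKI 3, far above the other 3 CML-TKI libraries. Ms4a4a was at 0.193 CPM in CML 3, from 1 count, where the other 3 CML libraries held 0 counts. With 3 libraries tied at 0, any single count lies apart in this way, and the chance rate does not hold for it.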

How the results depend on the processing

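The 6 members kept their direction under every alternative that gave a value. All 6 passed the threshold with DESeq2, limma-voom, RLE scaling, total counts with and without Rn45s and no filter, and 4 to 6 did so with 1 library left out. With CML 1 to 3 summed to 1 library, 3 members passed (Ms4a3, Ms4a6c and Ms4a6d), and 4 did so at an adjusted p under 0.01 and in libraries thinned to the smallest total, where Ms4a4b and Ms4a4c were too low to be tested. Ms4a3 passed in all 18 alternatives, with a log2 fold change of 6.32 to 7.15 and an adjusted p of at most 0.0385. Over all genes the count of 1220 became 2157 with DESeq2, 2563 with limma-voom, 122 with CML 1 to 3 summed, 395 at an adjusted p under 0.01, and 505 to 2504 with 1 library left out, the extremes being without CML 1 and without CML-TKI 1. Of the calls on single members, Ms4a6b lost its own with CML 1 to 3 summed (adjusted p = 0.206) and Ms4a4b (0.159) and Ms4a4c (0.0562) did so too. The mean summed level of CML was 23.9 CPM by total counts without Rn45s, against 18.1 CPM. With 1 library left out, added after the data were seen, the mean of CML-TKI lay between 376.3 and 567.1 CPM and the Ms4a6b share difference between -51.9 and -45.5 points.

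Samples with the same number did not deviate together (correlations of -0.0416, 0.0972 and 0.0934 for numbers 1 to 3), so the numbers were not taken to pair the samples. With a replicate block over libraries 1 to 3 of each group, 193 genes and 4 members passed the threshold, and Ms4a4b (adjusted p = 0.174) and Ms4a6b (adjusted p = 0.248) did not, in a fit of 6 libraries. Over all genes the median log2 fold change shifted to -0.114 with limma-voom, -0.139 without Rn45s and -0.128 with the block, and relative to it the members lay between 1.66 and 7.32.

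Depth limited Ms4a4b, Ms4a4c and Ms4a6d, which stood at or near the floor of 3 counts in CML, and CML-TKI 3, whose floor of 3.29 CPM was the highest.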
